A study of Rattus norvegicus with 24 samples.

Results

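Fasted liver was compared with fasted brown adipose tissue (BAT), the heat-producing fat, on 8 of the 24 arrays of the study. Titles alone chose the arrays: 4 hold liver and 4 hold BAT of rats that had not eaten for 24 h. Both tissues came from male Wistar rats, an outbred laboratory strain, aged 8 weeks, and the BAT was the pad between the shoulder blades. All rats, the fed ones included, had been trained for 7 days to eat only between hour 10 and hour 16 of the day, with water always at hand. The fasted rats then missed 1 such meal and the fed rats took it, and both tissues were removed at hour 16. Fasted animals are numbered 6, 8, 9 and 10 and fed animals 1, 2, 4 and 5 in both tissues. Arrays with equal numbers were taken as tissues of the same rat, an assumption that no label states. The main comparisons had no term for the animal. The pairing entered only an alternative fit, a check of it and the list medians of single animals. Each array stands for 1 animal of an otherwise unmanipulated strain.

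The liver is the organ that makes glucose and ketone bodies for the rest of the body in a fast, clears ammonia as urea and ships fat out in lipoproteins. Brown fat takes up fatty acids and glucose, burns them in dense mitochondria and, through uncoupling protein 1 (Ucp1), releases the energy as heat in place of ATP. The tissues therefore use many of the same pathways, often through isoforms of an enzyme that are encoded by different genes. The comparison shows how the mRNA of these pathways was divided between both tissues of the same fasted animals.

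Marker genes matched the tissue labels. Alb, the serum albumin gene, had signals of 11532, 9777, 12877 and 12263 in the livers of animals 6, 8, 9 and 10 and of 1830, 1701, 1435 and 1533 in their BAT. Apob, the structural protein of lipoproteins made by liver, had 9133 ± 1304 in liver and 2.20 ± 1.21 in BAT (SD, n = 4 arrays, as throughout). Ucp1 had 0.661, 1.36, 1.33 and 2.37 in the same livers against 10169, 10996, 10202 and 10351 in BAT. Albumin signal was thus not dim in BAT, but no array of either tissue overlapped those of the other for these 3 genes. All 9 hepatocyte markers measured were higher in liver at an adjusted p under 0.05, which held for 19.2% of all genes. Likewise 5 of 6 brown adipocyte markers and all 8 general adipocyte markers were higher in BAT, which held for 33.6% of all genes. The sixth brown marker, Elovl3, an elongase of very long fatty acids, was at 9.49 in BAT and 4.86 in liver (adjusted p = 0.118). Of the 6 brown markers, 2 were dim in both tissues, Elovl3 and a called one. Signals are the deposited array intensities after scaling each array to a common trimmed mean of 126. Differences are given as log2(signal + 1.86) in liver minus BAT with the standard error of the fit, a scale that understates differences of dim genes. A mean below 17.3, the 40th percentile of all signals on the 8 arrays, is called dim, and a fold against a dim tissue is given as at least the fold over that level. No probe set's signal is set against that of another.

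Skeletal muscle RNA was present in the fasted brown fat. All 14 skeletal muscle markers measured were higher in BAT, and 13 of them were dim in liver; the other, Myh1, was at 2805 in liver and 4942 in BAT. The mean log2 level of the 14 genes was 12.19, 12.20, 11.91 and 11.77 in the BAT of fasted animals 6, 8, 9 and 10 and ran from 3.09 to 3.59 in their livers. It was 6.77, 4.94 and 3.94 in the BAT of fed animals 1, 2 and 4 and 11.42 in that of fed animal 5. None of the 14 genes had a dim mean in either BAT group. The fed means include animal 5, so they do not show signal over the dim level in each fed animal. Muscle lies next to this fat pad, and its part in the BAT values was not tested. A set of 125 genes stood at least 4-fold higher in the BAT of fed animal 5 than in each other fed BAT array, and these genes are said below to follow muscle. The set rests on 1 array and holds 13 of the 14 skeletal muscle markers and 4 of 7 cardiac and slow muscle markers. A gene outside it can therefore still include signal from muscle, and counts of genes that follow muscle are lower limits. Macrophage markers were higher in liver for 8 of 10 genes and in BAT for 1, with a median difference of 1.05. Clec4f, a lectin of liver macrophages, was at 1718 against 1.18, a far wider difference than that median. Fibroblast markers were higher in BAT for 8 of 9 genes and in liver for 1, with Col1a1, a collagen chain, at 7730 against 89.0. Endothelial markers were mixed, with 6 of 9 higher in BAT and 3 in liver. Nerve and Schwann cell markers were higher in BAT for 4 of 5 genes. In whole tissue, fewer cells of a type and less RNA per cell cannot be told apart. Each scan day held arrays of 1 tissue, so scan day and tissue cannot be told apart either. The ratio of 3′ to 5′ control signals of beta-actin was higher in liver (log2 1.81 ± 0.17) than in BAT (0.97 ± 0.09), and its part in the results was not tested.

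**Figure D1:**
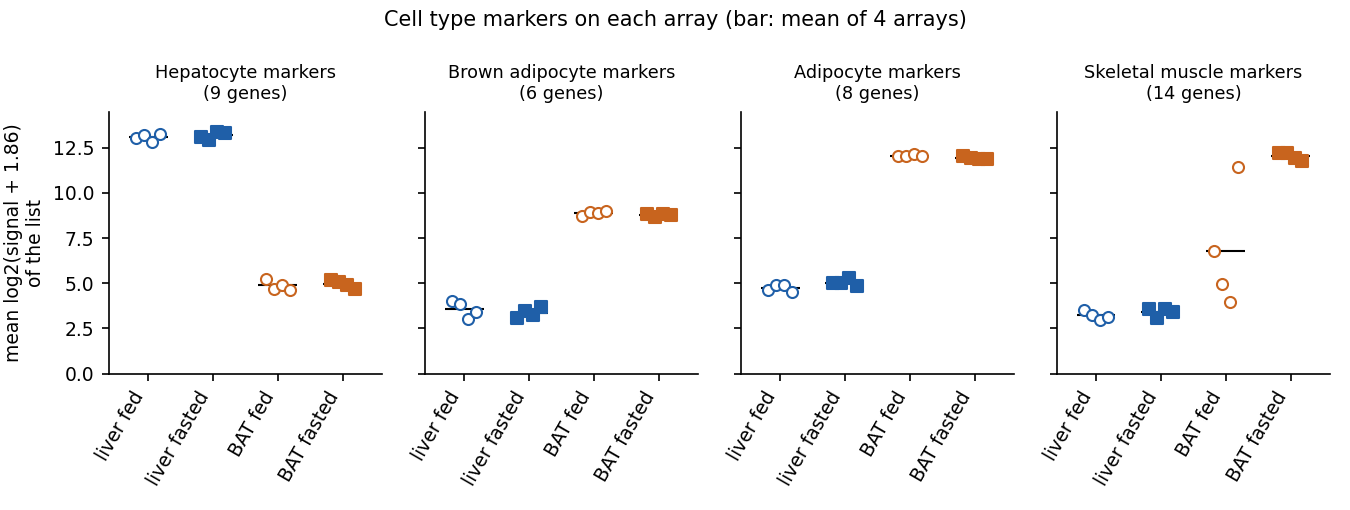
Mean log2(signal + 1.86) of the markers of 4 cell types on each array of liver (blue) and BAT (orange), with open circles for fed and filled squares for fasted animals and bars for the mean of 4 arrays. Skeletal muscle markers reached 11.77 to 12.20 on all 4 fasted BAT arrays and 11.42 on 1 fed BAT array.

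Between the fasted tissues, 7506 of 14217 genes were called at an adjusted p under 0.05, which is 52.8% of the genes. Liver was higher for 2728 of them (19.2% of all genes) and BAT for 4778 (33.6%). At least 2-fold differences made up 4903 calls (34.5%), 1760 toward liver (12.4%) and 3143 toward BAT (22.1%). The 4 liver and 4 BAT arrays did not overlap at all for 7090 genes (49.9%), 2551 with liver above (17.9%) and 4539 with BAT above (31.9%). Liver held 36.3% of the calls under trimmed-mean scaling, 42.2% under quantile normalization and 53.7% under median centring, so the split of all calls between tissues depended on the scaling. The median over all genes was −0.28, −0.10 and 0.05 under these scalings. Small differences are therefore relative to that shift. Of the 2-fold calls toward BAT, 103 were genes that follow muscle, and without all 125 such genes 2724 calls toward liver and 4678 toward BAT were left.

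The widest differences were those of secreted proteins and detoxifying enzymes in liver, and of heat, fat storage and muscle genes in BAT. Apob differed by 11.17 ± 0.20 (adjusted p = 1.35e-12), at least 472-fold. Among the 8 largest liver-high genes were also Crp, the acute-phase C-reactive protein (6950 ± 654 against 1.36 ± 0.789), Fga, a fibrinogen chain (8902 ± 1313 against 4.43 ± 3.27), and Apoa5 and Apoc2, apolipoproteins that act on lipoprotein lipase. The cytochromes P450 Cyp3a2 (11.12 ± 0.25) and Cyp2c6v1 (10.86 ± 0.24) and the glucuronosyltransferase Ugt2b35 (10.63 ± 0.31) completed them. P450 genes have near-identical copies, so the signal of such a gene may include that of a copy.

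Ucp1 was the largest difference toward BAT, −11.66 ± 0.16 (adjusted p = 2.92e-13), at least 543-fold. Acta1, Myl11, Atp2a1, Myl1 and Ckm, which encode skeletal muscle actin, myosin light chains, a calcium pump and creatine kinase, followed with −11.37 to −10.01. Acta1 was at 8491 ± 316 on the fasted BAT arrays but at 506, 186 and 13.6 in BAT of fed animals 1, 2 and 4 and at 7848 in fed animal 5. Cox8b, a cytochrome oxidase subunit of heat-producing and muscle mitochondria, differed by −9.83 ± 0.29. Its 4 fasted BAT arrays lay between 4725 and 4942 and its 4 fed BAT arrays between 4524 and 5401, whatever their muscle level. Plin1, which coats the lipid droplet of fat cells, differed by −9.81 ± 0.29.

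Over fed and fasted arrays together, the genes with the widest gaps between all 8 BAT and all 8 liver arrays were Ucp1, Fabp4, Cox8b, Plin1, Adipoq, Prkar2b, Slc2a4 and Arxes1. Fabp4, a fatty acid carrier of fat cells, was nearly constant in fasted animals, at 9863, 9761, 9643 and 10016 in BAT and 11.5, 11.1, 11.5 and 12 in liver. Prkar2b, a regulatory subunit of cAMP-dependent protein kinase, differed by −7.85 ± 0.16 and Arxes1 by −7.84 ± 0.21. On the liver side the widest such gaps were those of Crp, Apob, Serpinc1 (antithrombin), Cyp2a2, Fgb (a fibrinogen chain), Ugt2b35, Cyp2c22 and Fga, with differences between 9.93 and 11.17. Of the 3 probe sets of Fgb, 1 ran the other way, higher in BAT on fasted arrays that did not overlap. Coagulation factors and P450 enzymes thus stood apart in both feeding states, while 5 of the 8 largest fasted differences toward BAT were muscle genes, none of which was among the widest gaps over both states.

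Sequences upstream of some of the most unequal genes are shown for the letters preferred by a factor whose own gene was divided between the tissues. Hnf4a, a nuclear receptor that keeps hepatocytes differentiated, was at 2581, 2993, 3813 and 3512 in fasted liver and at 11.9, 9.19, 8.41 and 12.5 in BAT (8.03 ± 0.17, adjusted p = 4.19e-12). The human protein is known to prefer the letters CAAAGTCCA. RefSeq sequence of the 250 bases before the start, build GRCr8, was at hand for 11734 of the 14217 genes. The letters, on either strand, lay in 0.332% of all these windows and in 9 of 237 (3.80%) of the genes at least 32-fold higher in liver. They lay in 1 of 123 windows (0.813%) of the genes at least 32-fold higher in BAT. The 9 stretches are given here 5′ to 3′ along the gene's own strand, with the letters of the motif, or their reverse complement, in capitals.
Agxt2: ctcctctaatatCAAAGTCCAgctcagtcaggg
Aspdh: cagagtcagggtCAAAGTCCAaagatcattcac
Baat: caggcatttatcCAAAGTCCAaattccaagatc
Cps1: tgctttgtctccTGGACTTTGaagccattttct
Cyp3a2: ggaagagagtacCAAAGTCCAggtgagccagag
Cyp3a23-3a1: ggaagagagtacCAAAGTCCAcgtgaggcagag
Kmo: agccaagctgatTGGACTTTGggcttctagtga
Pdzk1: tcaatcttggtcCAAAGTCCA
Smlr1: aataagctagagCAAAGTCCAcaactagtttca

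In that order they lie at chr2:61063356-61063388, chr1:104094910-104094942, chr5:68656207-68656239 (minus strand), chr9:76063780-76063812, chr12:14343934-14343966 (minus), chr12:14398893-14398925 (minus), chr13:90089435-90089467, chr2:187064974-187064994 and chr1:21656648-21656680. The motif began between −110 and −9 bases from the start of these genes. These genes were picked by the letters after their values were seen. Baat joins bile acids to amino acids, Cps1 catalyses the entry step of the urea cycle, Kmo acts in tryptophan breakdown and Agxt2 is an aminotransferase. Their fasted liver signals were 5352 ± 866, 5761 ± 901, 1323 ± 243 and 455 ± 148, and their BAT signals were all dim, from 5.58 to 13.3. Cyp3a2 and Cyp3a23-3a1 are near copies, and both lie on chromosome 12. A match of letters is a description and not a site in use.

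The other motifs searched, again on both strands, were TTNNGCAA of C/EBP factors, CAGCTG (the E-box preferred by mouse MyoD, the muscle factor), TCAAGGTCA of estrogen-related receptors, the NRF1 palindrome, TCACNCCAC of SREBP and TATAAA of the TATA box. None of these strings contains another. C/EBP letters lay in 8.18% of all windows, in 18.6% of those of the 237 liver-high genes and in 11.4% of those of the 123 BAT-high genes. TATAAA lay in 8.06%, 19.4% and 17.9%. The E-box lay in 12.8% of all windows, 13.9% of the liver-high and 27.6% of the BAT-high ones, and in 15.5% of the 71 BAT-high ones that do not follow muscle. The letters of estrogen-related receptors and NRF1, regulators of mitochondrial genes, lay in 0.187% and 1.47% of all windows and in 0% of both groups. For a share as low as 0.187%, 0% in groups of this size says little. Of the genes at least 2-fold higher in BAT, 2529 had a window, and 0.316% and 1.3% of these held the letters. For the 1439 at least 2-fold higher in liver the shares were 0% and 0.625%. SREBP letters lay in 0.98% of all windows, 0.422% of the liver-high and 0% of the BAT-high ones. The 250 bases before Ucp1 and Cox8b, the brown fat genes furthest from liver, are shown with TATAAA and CAGCTG in capitals; they lie at chr19:41721422-41721671 and chr1:205408274-205408523, both on the minus strand.
Ucp1: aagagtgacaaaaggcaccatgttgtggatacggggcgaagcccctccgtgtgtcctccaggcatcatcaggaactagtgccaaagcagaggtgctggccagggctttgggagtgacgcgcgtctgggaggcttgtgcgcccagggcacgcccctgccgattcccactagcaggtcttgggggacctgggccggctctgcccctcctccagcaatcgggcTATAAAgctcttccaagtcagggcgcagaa
Cox8b: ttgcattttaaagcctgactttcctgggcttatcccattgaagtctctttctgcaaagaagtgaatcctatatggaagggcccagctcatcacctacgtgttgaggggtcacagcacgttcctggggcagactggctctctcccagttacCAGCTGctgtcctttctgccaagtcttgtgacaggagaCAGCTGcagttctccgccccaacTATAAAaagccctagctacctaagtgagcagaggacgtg

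For fuel metabolism, 440 measured genes of 24 pathway lists were followed. Of these, 153 were higher in liver, 237 were higher in BAT and 50 were not called. Whole pathways leaned to 1 tissue, from a median difference of 8.6 for lipoprotein assembly to −3.14 for thermogenesis, against −0.28 over all genes. These medians are descriptions with no test of the lists.

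**Figure D2:**
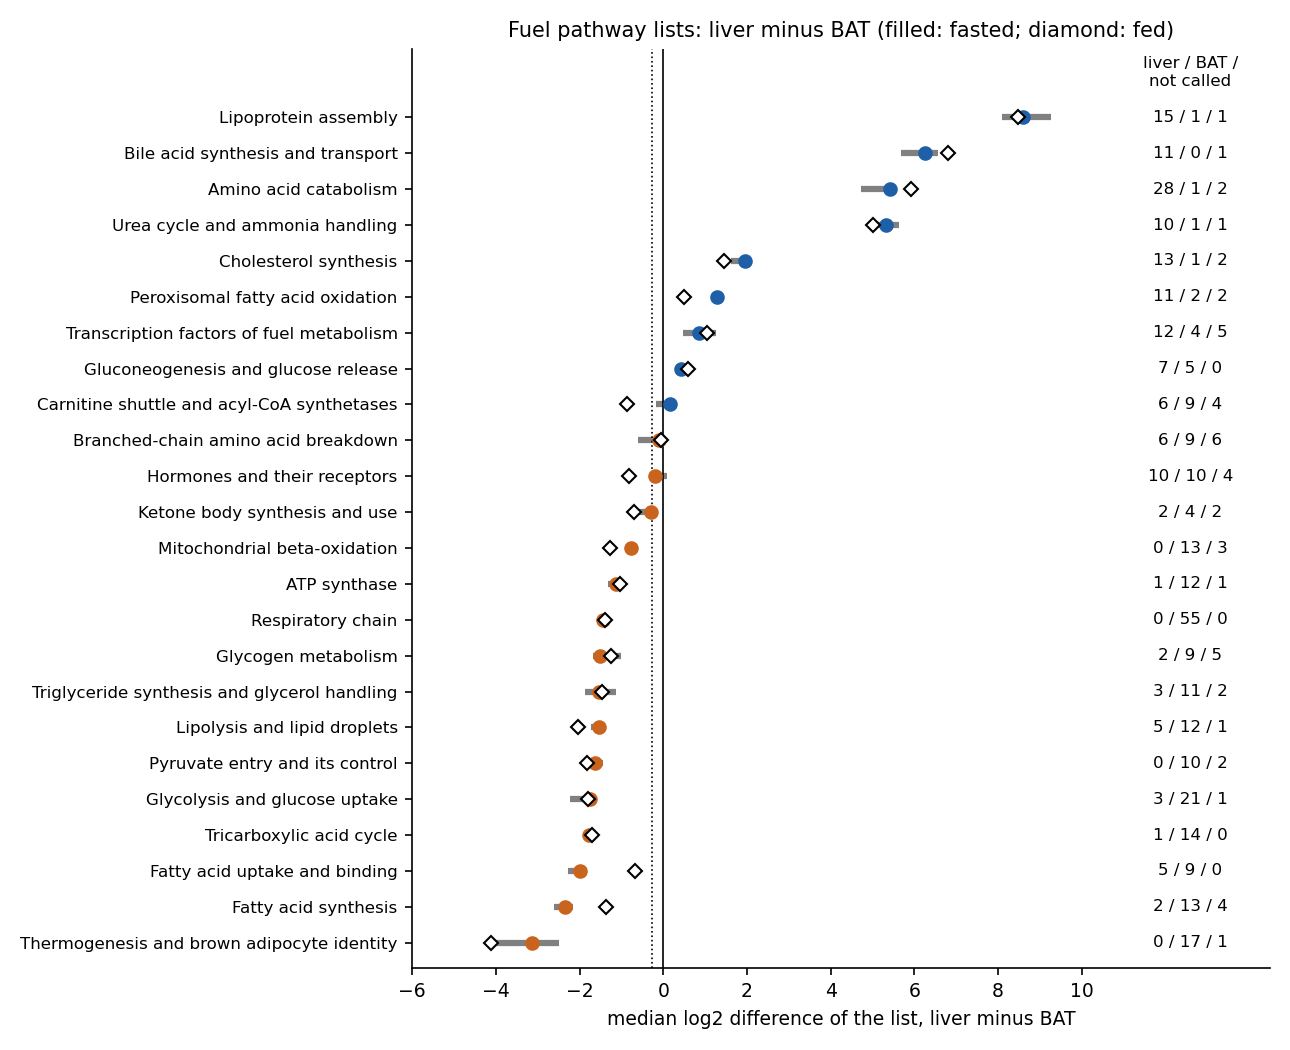
Median log2 difference, liver minus BAT, of each pathway list in fasted animals (filled circles), the range of the medians of the 4 fasted animals (grey bars) and the median in fed animals (diamonds), with a dotted line at −0.28, the median over all genes. Numbers at the right count members higher in liver, higher in BAT and not called in fasted animals; lists run from 8.6 for lipoprotein assembly to −3.14 for thermogenesis.

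Glucose-making genes were split by isoform. Of 12 measured genes of gluconeogenesis and glucose release, 7 were higher in liver and 5 in BAT, with a median of 0.43. Fbp1, the fructose bisphosphatase of liver and kidney, had 5291, 4440, 4914 and 4981 in liver against 13.5, 2.35, 4.11 and 18.2 in BAT, a difference of 9.03 ± 0.40. Fbp2, the muscle form, was the reverse, with 9.63, 6.72, 13 and 4.38 in liver and 255, 347, 211 and 265 in BAT (−4.77 ± 0.29). Fbp2 was at 206 ± 57.5 in fed BAT and did not follow muscle. Slc2a2, which lets glucose out of the hepatocyte, was at 3047 ± 767 in liver and 3.48 ± 2.51 in BAT. Tat and Sds, which feed tyrosine and serine carbon into glucose, were at least 96.0-fold and 76.7-fold higher in liver.

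Pck1 differed little between the tissues. It encodes the cytosolic phosphoenolpyruvate carboxykinase, which serves glucose synthesis in liver and glycerol synthesis for triglyceride in fat. Its signals were 6415, 5663, 6548 and 7554 in liver and 3992, 5226, 5523 and 5561 in BAT, so all liver values lay above all BAT values by a narrow margin. The difference was 0.37 ± 0.13 (adjusted p = 0.029), and the call ended under 6 alternatives (adjusted p from 0.0526 to 0.0964). Pck1 was also at 5256 ± 377 in white fat of the same fasted rats. Pck2, the mitochondrial form, was higher in BAT at 303 ± 25.8 against 118 ± 18.3, and Gpd2, the mitochondrial glycerol phosphate dehydrogenase that brown fat uses to pass electrons inward, at 1905 ± 214 against 109 ± 17.5.

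Glycolysis genes leaned to brown fat. Of 25 measured genes of glycolysis and glucose uptake, 21 (84%) were higher in BAT and 3 in liver, with a median of −1.76. Of the 25 genes, 2 follow muscle. Slc2a4, the insulin-responsive glucose transporter, was at 1916, 1804, 1781 and 1778 in BAT and at 13.7, 5.88, 12.4 and 2.40 in liver. Aldoa, an aldolase, was at 11006 ± 871 against 728 ± 60.3 and Pfkfb3, which makes the activator of phosphofructokinase, at 1770 ± 252 against 11.5 ± 2.43. Pgam2, the muscle phosphoglycerate mutase, was at 2466 ± 650 in fasted BAT but follows muscle, with 51.4, 17.5 and 12.8 in BAT of fed animals 1, 2 and 4. The 3 liver-high genes were Pklr, Gckr and Pfkfb1. Pklr, the liver pyruvate kinase, was at 233 ± 58.1 against 12.3 ± 5.95, and Gckr, the glucokinase inhibitor, at 373 ± 129 against 18 ± 7.22. Pfkfb1 was at 1696 ± 403 against 909 ± 87. In fed rats Pfkfb1 was higher in BAT, at 1138 ± 65.5 against 801 ± 135 in liver, so its higher tissue changed.

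Pfkl, a phosphofructokinase, was higher in BAT (−2.20 ± 0.42), but its liver arrays fell into 2 levels, 229 and 265 in animals 6 and 8 and 62.2 and 64.1 in animals 9 and 10. Those pairs are the 2 scan days of liver, and the part of scan day in this was not tested. Pfkm, the muscle form, was at 24.7, 28.3, 30.4 and 34.4 in liver and 1505, 1709, 1416 and 1312 in BAT (−5.57 ± 0.14). In fed BAT it was at 779 ± 211, and the part of muscle RNA in its BAT signal was not tested.

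Genes of pyruvate entry into mitochondria and of its control were mostly higher in BAT too. Of 12 measured genes, 10 were higher in BAT and 2 were not called, with a median of −1.62. Pdha1, a subunit of pyruvate dehydrogenase, was at 6401 ± 307 in BAT and 821 ± 58.9 in liver, and Mpc1, of the pyruvate carrier, at 8273 ± 256 and 2559 ± 227. The list also holds kinases that switch pyruvate dehydrogenase off, so its counts do not show which way entry itself leaned. Of these kinases, Pdk1 was higher in BAT, at 1342 ± 99.4 against 236 ± 24.6. Pdk4, the kinase induced by fasting in many tissues, was at 5304, 6245, 5163 and 4749 in BAT and at 713, 1361, 1624 and 1670 in liver (−2.07 ± 0.23, adjusted p = 7.81e-06). The tissues did not overlap, although liver of animal 6 stood below the other livers.

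Of the glycogen synthases, 1 was called and 1 was not. Gys2, the glycogen synthase named for liver, had 487, 586, 711 and 473 in liver and 839, 617, 614 and 620 in BAT, a difference of −0.26 ± 0.15 (adjusted p = 0.181) with overlapping arrays. Gys1, the muscle form, was higher in BAT at 507 ± 33 against 26.7 ± 18.9. Pygl, the phosphorylase named for liver, was higher in BAT too, at 3301 ± 204 against 698 ± 111. Pygm, the muscle phosphorylase (3118 ± 606 against 9.85 ± 5.81), follows muscle. Of 16 measured glycogen genes, 9 were higher in BAT, 2 in liver and 5 were not called.

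**Figure D3:**
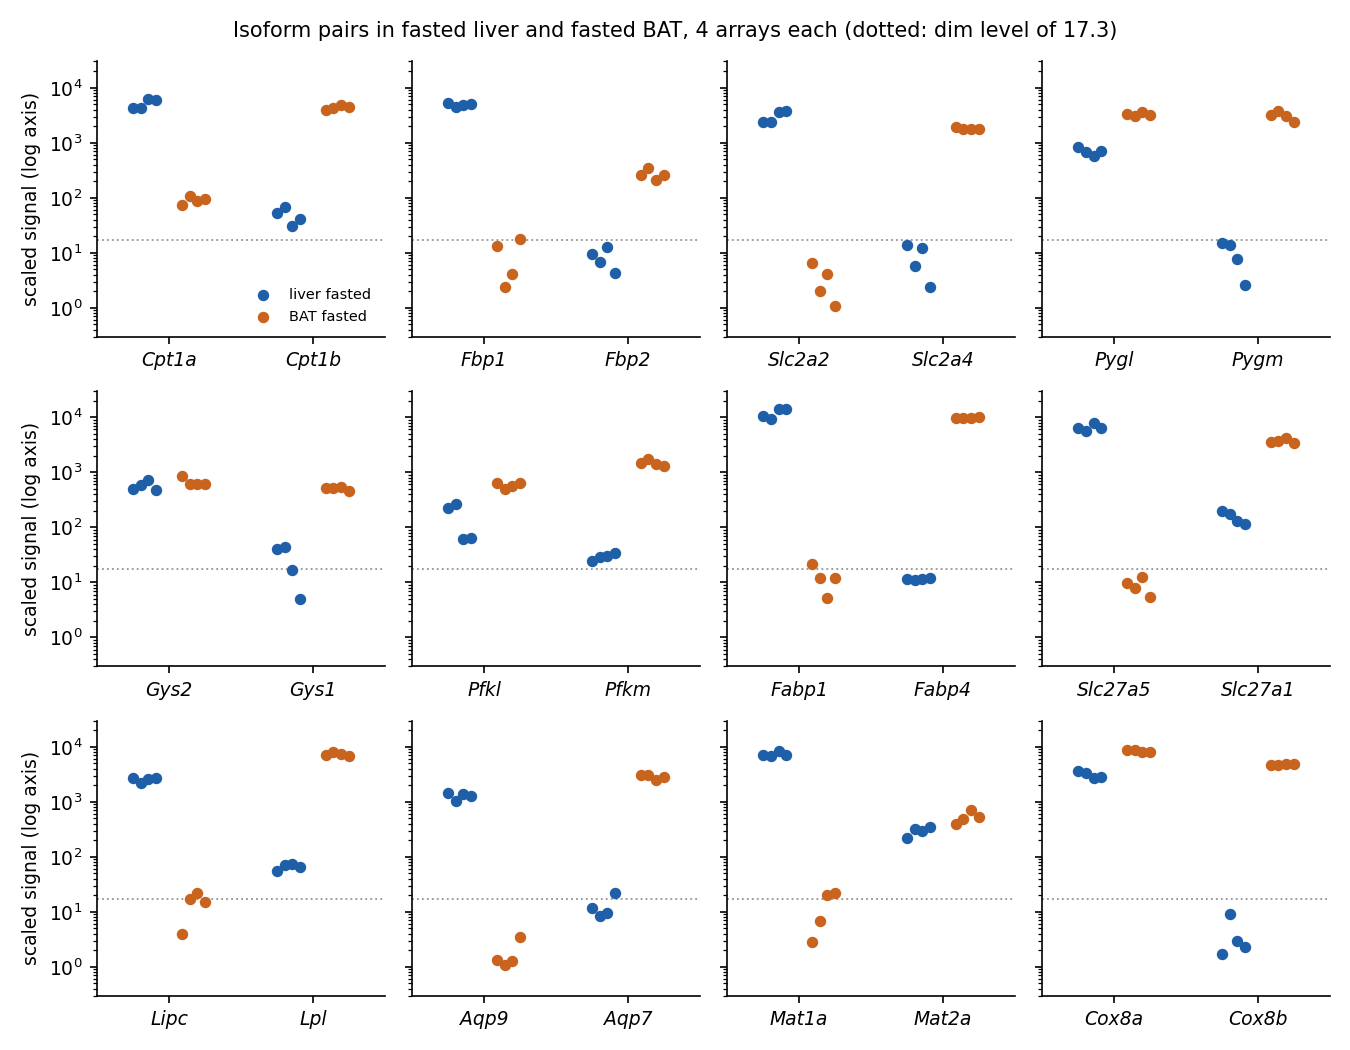
Scaled signals (log axis) of 12 isoform pairs on the 4 fasted liver arrays (blue) and 4 fasted BAT arrays (orange), with a dotted line at the dim level of 17.3. Cpt1a and Cpt1b, Fbp1 and Fbp2, Slc2a2 and Slc2a4, Fabp1 and Fabp4, Slc27a5 and Slc27a1, Lipc and Lpl, Aqp9 and Aqp7, and Mat1a and Mat2a were unequal in opposite directions, whereas Gys2 overlaps and Pygl, Pfkl and Cox8a are higher in BAT like their partners.

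The gate of fatty acid oxidation was divided between isoforms of carnitine palmitoyltransferase 1, which loads long-chain fatty acids for entry into mitochondria. Cpt1a was at 4323, 4339, 6314 and 6000 in fasted liver and 74.8, 110, 87.4 and 94.6 in BAT, a difference of 5.80 ± 0.16 (adjusted p = 2.72e-11). Cpt1b was at 52.7, 68.6, 30.6 and 41.3 in liver and 3885, 4241, 4802 and 4424 in BAT, a difference of −6.49 ± 0.20 (adjusted p = 7.13e-11). Cpt1b was at 5069 ± 162 in fed BAT and did not follow muscle. Of 19 genes of the carnitine shuttle and acyl-CoA synthetases, 6 were higher in liver and 9 in BAT, with a median of 0.17 (medians of the 4 animals from −0.18 to 0.04). Under median centring 10 were higher in liver and 8 in BAT. Slc27a5, which activates bile acids and fatty acids in liver, was at 6599 ± 1017 against 8.77 ± 2.93. Its relative Slc27a1, a fatty acid importer, was at 155 ± 38.7 against 3734 ± 314. Slc25a20, the carnitine carrier that every oxidising cell needs, was higher in BAT at 2401 ± 196 against 963 ± 41.4.

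Genes of mitochondrial beta-oxidation were mostly higher in brown fat, and those of peroxisomal oxidation in liver. Of 16 mitochondrial genes, 13 (81.2%) were higher in BAT and none in liver, with a median of −0.76. Under median centring 9 were higher in BAT and 1 in liver. Hadhb, of the trifunctional protein, was at 7787, 9021, 7666 and 7757 in BAT and 2679, 3190, 3201 and 3346 in liver (−1.38 ± 0.10). Acadvl and Acadl, the very-long- and long-chain acyl-CoA dehydrogenases, differed by −1.30 ± 0.10 and −1.28 ± 0.10, and Etfdh, which hands their electrons to ubiquinone, by −1.63 ± 0.12.

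Of 15 peroxisomal genes, 11 (73.3%) were higher in liver and 2 in BAT, with a median of 1.28. Acox2, the oxidase of bile acid precursors and branched fatty acids, was at 1716, 1228, 1158 and 941 in liver and 20.9, 11.6, 12.3 and 10.3 in BAT, at least 64.2-fold higher. Ehhadh, the bifunctional enzyme that completes a peroxisomal cycle, was at 4761 ± 534 in liver and 311 ± 182 in BAT (4.07 ± 0.27). In BAT it was at 228, 195 and 238 in animals 6, 8 and 10 and at 582 in animal 9. Decr2, a peroxisomal dienoyl-CoA reductase, was at 3311 ± 378 against 602 ± 26.5. Abcd2, a peroxisomal fatty acid transporter, was an exception at 129 ± 35.3 in BAT and 12.8 ± 4.94 in liver (−3.17 ± 0.30).

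Ketone genes were divided by role. Bdh1, which makes 3-hydroxybutyrate in liver, was at 1435, 1454, 1221 and 1427 in liver and 13.3, 3.53, 4.22 and 8.98 in BAT (7.33 ± 0.29, adjusted p = 7e-10). Oxct1, which activates acetoacetate for burning and is known to be low in hepatocytes, was at 36.9, 35.7, 36.7 and 44.2 in liver and 1515, 1125, 1350 and 1482 in BAT (−5.08 ± 0.14, adjusted p = 2.39e-11). The arrays of the tissues lay far apart for both genes. Oxct1 was at 1378 ± 156 in white fat of the same rats, so its high level was shared by both fats. Aacs, which turns acetoacetate into a precursor of lipid synthesis, was at 531 ± 34.5 in BAT and 14.4 ± 2.68 in liver. Of the monocarboxylate carriers, Slc16a7 was higher in liver (1.80 ± 0.14). Slc16a1 was slightly higher in BAT (−0.36 ± 0.11, adjusted p = 0.0152), a call that ended under 4 alternatives (adjusted p up to 0.872, under median centring, where the median of all genes moved by about as much). Over the 8 measured ketone genes 2 were higher in liver and 4 in BAT.

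Heat and respiration genes were higher in brown fat almost without exception. All 55 measured subunits of the respiratory chain were higher in BAT, 47 of them at least 2-fold, with a median of −1.44; under median centring 53 were called. Of 15 genes of the tricarboxylic acid cycle, 14 were higher in BAT, and of 14 ATP synthase genes 12. Uqcrh, a subunit of complex III, was at 5445, 5365, 5378 and 5536 in BAT and 1563, 1547, 1527 and 1578 in liver (−1.80 ± 0.08). Ndufs1, the largest subunit of complex I, was at 3509 ± 186 against 796 ± 69. Cs, citrate synthase, was at 6087 ± 151 in BAT and 552 ± 123 in liver, and Idh3a, of the NAD-dependent isocitrate dehydrogenase, at 3437 ± 321 and 149 ± 26.8.

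The genes of these lists called higher in liver were Suclg2 and Atp5mc3. Suclg2, the GTP-forming succinyl-CoA ligase subunit, was higher in liver at 2381 ± 309 against 1721 ± 62 (0.46 ± 0.11, adjusted p = 0.00298). Atp5mc3, a gene for the ring subunit c of ATP synthase, was at 4637 ± 149 in liver and 3857 ± 324 in BAT, a call (adjusted p = 0.0276) that ended under 8 alternatives. Cox6a2, the heart and muscle form of a cytochrome oxidase subunit, was at 2377, 2369, 1507 and 1465 in fasted BAT and 4.84, 3.77, 16.3 and 8.09 in liver. It follows muscle: it was at 12.8, 7.36 and 1.36 in BAT of fed animals 1, 2 and 4 and at 954 in fed animal 5. Its partner Cox6a1, the general form, was at 7578 ± 262 in BAT and 2213 ± 101 in liver.

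Of 18 genes of thermogenesis and brown fat identity, 17 were higher in BAT, with a median of −3.14. Adrb3, the adrenergic receptor that starts heat production, was at 2454, 2124, 2131 and 2105 in BAT and 1.49, 2.05, 9.75 and 6.25 in liver. Kcnk3, a potassium channel of brown adipocytes, was at 1216 ± 115 against 20.6 ± 3.43. Cidea, a lipid droplet protein, was at 8757 ± 468 in BAT, 401 ± 148 in liver and 2287 ± 494 in fasted white fat. None of the 18 genes follows muscle.

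Genes of fat capture and storage leaned to brown fat, and those of export to liver. Lpl, lipoprotein lipase, which frees fatty acids from circulating lipoproteins, was at 7222, 7989, 7330 and 6669 in BAT and 54.2, 71.2, 74.8 and 65.6 in liver (−6.75 ± 0.12, adjusted p = 1.31e-12). Lipc, the hepatic lipase, was at 2718, 2226, 2587 and 2740 in liver and 3.96, 17, 21.7 and 15.3 in BAT (7.46 ± 0.34). Cd36, a fatty acid translocase, was at 4495 ± 648 in BAT and 311 ± 60.1 in liver, and Vldlr, a lipoprotein receptor, at 607 ± 29.3 and 11.9 ± 2.57. In fasted white fat Lpl was at 6371 ± 505 and Cd36 at 4880 ± 488, so their high levels were shared by both fats. Fabp1, the liver fatty acid carrier, was at least 615-fold higher in liver. Of 14 genes of fatty acid uptake and binding, 9 were higher in BAT and 5 in liver.

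Of 17 genes of lipoprotein assembly, 15 were higher in liver, 1 in BAT and 1 was not called, with a median of 8.6. Apoa1, the main protein of high-density lipoprotein, was at 7641 ± 1380 against 18.7 ± 6.87, and Lcat, which esterifies its cholesterol, at 5778 ± 246 against 67.8 ± 15.5. The BAT-high gene was Pltp, a phospholipid transfer protein (616 ± 115 against 333 ± 81.5).

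Fat cell lipases were present in liver at lower signal. Pnpla2, which starts triglyceride breakdown, was at 6142, 6018, 6582 and 6177 in BAT and 582, 766, 565 and 255 in liver (−3.62 ± 0.26). Lipe, hormone-sensitive lipase, was at 3213 ± 226 and 68.4 ± 19.3. Liver had its own set in Aadac, an esterase of the endoplasmic reticulum (1187 ± 214 against 3.76 ± 2.58), Lipa, the lysosomal lipase (1727 ± 156 against 266 ± 44.2), and Cideb, a droplet protein that aids lipoprotein lipidation (1283 ± 210 against 13.1 ± 2.50). Plin2, the droplet coat of most cells, was higher in liver (1.23 ± 0.12), a direction that turned to −0.23 when all its probe sets were averaged. Of 18 genes of lipolysis and lipid droplets, 12 were higher in BAT and 5 in liver. Glycerol channels were divided too: Aqp9, by which liver takes glycerol in, was at 1470, 1017, 1371 and 1287 in liver and 1.36, 1.06, 1.28 and 3.44 in BAT, and Aqp7, by which fat cells release it, at 11.9, 8.41, 9.52 and 21.8 in liver and 3101, 3112, 2466 and 2786 in BAT.

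Lipid synthesis was divided by product. Fatty acid synthesis was higher in brown fat, with 13 of 19 genes, against 2 higher in liver, and a median of −2.35. Fasn, fatty acid synthase, was at 9407, 9891, 9663 and 9012 in BAT and 271, 247, 243 and 348 in liver (−5.10 ± 0.12, adjusted p = 8.05e-12). Acaca, which makes its substrate, was at 5535 ± 270 and 356 ± 62.9, and Elovl6, which elongates its product, at 1362 ± 106 and 84.3 ± 22.3. The 2 liver-high genes, Fads1 (3.42 ± 0.16) and Fads2 (5.00 ± 0.27), desaturate polyunsaturated fatty acids. Triglyceride synthesis also leaned to BAT, in 11 of 16 genes, with Dgat1, which adds the last acyl chain, at 2574 ± 188 against 387 ± 63.3 and Gpd1, which makes glycerol phosphate, at 8439 ± 313 against 2270 ± 267.

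Sterol synthesis was higher in liver, in 13 of 16 measured genes, with 1 higher in BAT and a median of 1.95. Sc5d, Cyp51 and Msmo1, late enzymes of the pathway, were at 1537 ± 207, 2151 ± 289 and 609 ± 76.6 in liver and 145 ± 34.7, 240 ± 53.7 and 100 ± 2.29 in BAT. Fdft1, squalene synthase, was the BAT-high gene (941 ± 110 against 615 ± 77.8, −0.62 ± 0.12), and its call ended under median centring and with probe sets averaged (adjusted p 0.113 and 0.148). Of 12 bile acid genes, 11 were higher in liver and none in BAT, with a median of 6.25. Slc10a1, the bile acid importer, was at 5294 ± 866 in liver and 8.73 ± 2.04 in BAT, and Cyp8b1, which sets the kind of bile acid made, at 2031 ± 502 and 6.86 ± 2.83.

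Genes of nitrogen disposal were mostly higher in liver. Of 31 genes of amino acid breakdown, 28 (90.3%) were higher in liver, all of them at least 2-fold, and of 12 genes of the urea cycle and ammonia handling 10 were. Cps1, whose upstream stretch is printed above, was at 5094, 4935, 6817 and 6199 in liver and 7.70, 12.5, 17.4 and 15.4 in BAT (8.61 ± 0.21, adjusted p = 9.42e-12). Arg1, the arginase that releases urea, was at 7383 ± 1234 against 25.5 ± 8.33, and Nags, which makes the activator of Cps1, at 831 ± 56.2 against 13.5 ± 3.46. Uroc1, of histidine breakdown, was at least 119-fold higher in liver. Mat1a, the methionine adenosyltransferase of liver, was at 7181, 6933, 8287 and 7183 in liver and 2.88, 6.87, 19.9 and 22.0 in BAT, while Mat2a, the form of other tissues, was higher in BAT (−0.82 on the log2 scale).

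The BAT-high gene of the urea cycle and ammonia list was Glul, glutamine synthetase. It was at 2072, 1800, 2206 and 1746 in liver and 5417, 5489, 7140 and 6171 in BAT (−1.63 ± 0.12, adjusted p = 1.83e-07). It was at 4894 ± 835 in fasted white fat. Gls2, the liver glutaminase that runs the opposite reaction, was at 2032 ± 181 in liver and 68.0 ± 11.8 in BAT.

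Of 21 genes of branched-chain amino acid breakdown, 6 (28.6%) were higher in liver, 9 (42.9%) in BAT and 6 were not called, with a median of −0.10. Over all genes the shares were 19.2% and 33.6%, so these counts set the list little apart from the rest. Bcat2, which takes the amino group off in the first step, was at 11.4, 5.75, 7.46 and 9.04 in liver and 318, 236, 301 and 220 in BAT (−4.73 ± 0.24). The kinase Bckdk, which inhibits the second step, was higher in BAT (−1.66 ± 0.14), and the phosphatase Ppm1k, which releases it, was higher in liver (1.33 ± 0.19). Aldh6a1, an enzyme at the end of valine breakdown, was higher in liver at 2913 ± 835 against 955 ± 249, with animals 9 and 10, which share a scan day in each tissue, above animals 6 and 8 in both.

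Among regulators, 12 of 21 transcription factors of fuel metabolism were higher in liver and 4 in BAT. Besides Hnf4a, liver held Onecut1 (8.37 ± 0.42), Creb3l3, which drives fasting genes of hepatocytes (7.51 ± 0.31), and Nr1i3, the receptor CAR (852 ± 156 against 3.43 ± 2.66). Pparg, the master factor of fat cells, was at 2123, 1563, 1503 and 1430 in BAT and 46.5, 26.1, 26.1 and 32.6 in liver (−5.60 ± 0.19). Ppara, the fatty acid sensor known for ketone and oxidation genes in liver, was low in both tissues on this probe set: 48.9, 43.5, 29.4 and 54.2 in liver and 17.4, 16.1, 103 and 80.5 in BAT (0.11 ± 0.54, adjusted p = 0.887). Its BAT arrays fell into the 2 scan days, and without animal 6 or animal 8 of BAT the sign turned (−0.26 and −0.29). Ppargc1a, a coactivator of mitochondrial genes, was at 58.6, 82.9, 68.8 and 51.8 in liver and 100, 86.6, 102 and 108 in BAT (−0.61 ± 0.19, adjusted p = 0.0186), a call that ended under 7 alternatives (adjusted p from 0.0507 to 0.282).

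Of 24 hormones and receptors, 10 were higher in each tissue. Igfbp1, the insulin-suppressed binding protein of insulin-like growth factors, was at 3204, 3662, 5395 and 2864 in liver and 8.98, 0.634, 1.41 and 7.66 in BAT (9.41 ± 0.43). Fgf21, the fasting hormone of liver, was at 63.8, 148, 79.9 and 128 in liver and 4.53, 6.35, 11.9 and 7.46 in BAT (3.48 ± 0.35, adjusted p = 3.21e-06). Receptors of its family were divided, with Fgfr4 at 207 ± 30.1 in liver and 4.97 ± 4.45 in BAT and Fgfr1 at 67.1 ± 11.3 and 615 ± 116. Cfd and Adipoq, secreted by fat cells, differed by −5.21 ± 0.17 and −9.46 ± 0.46.

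The same tissues of fed rats gave a comparison for the feeding state. The same tissue difference in fed rats called 7423 genes (52.2%), and the fasted and fed differences were compared in 1 fit over 16 arrays as an interaction. It called 1063 genes (7.48%). A difference is said to move toward liver where liver minus BAT was more positive in fasted than in fed rats, which holds for 490 genes (3.45%), and toward BAT for 573 (4.03%). Of the 573, 81 follow muscle. The distance between tissues was wider in fasted rats for 548 of the 1063 and narrower for 515, and for 287 the higher tissue changed. Among the 440 fuel genes, 48 moved toward liver and 34 toward BAT, 5 of the 34 being genes that follow muscle.

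**Figure D4:**
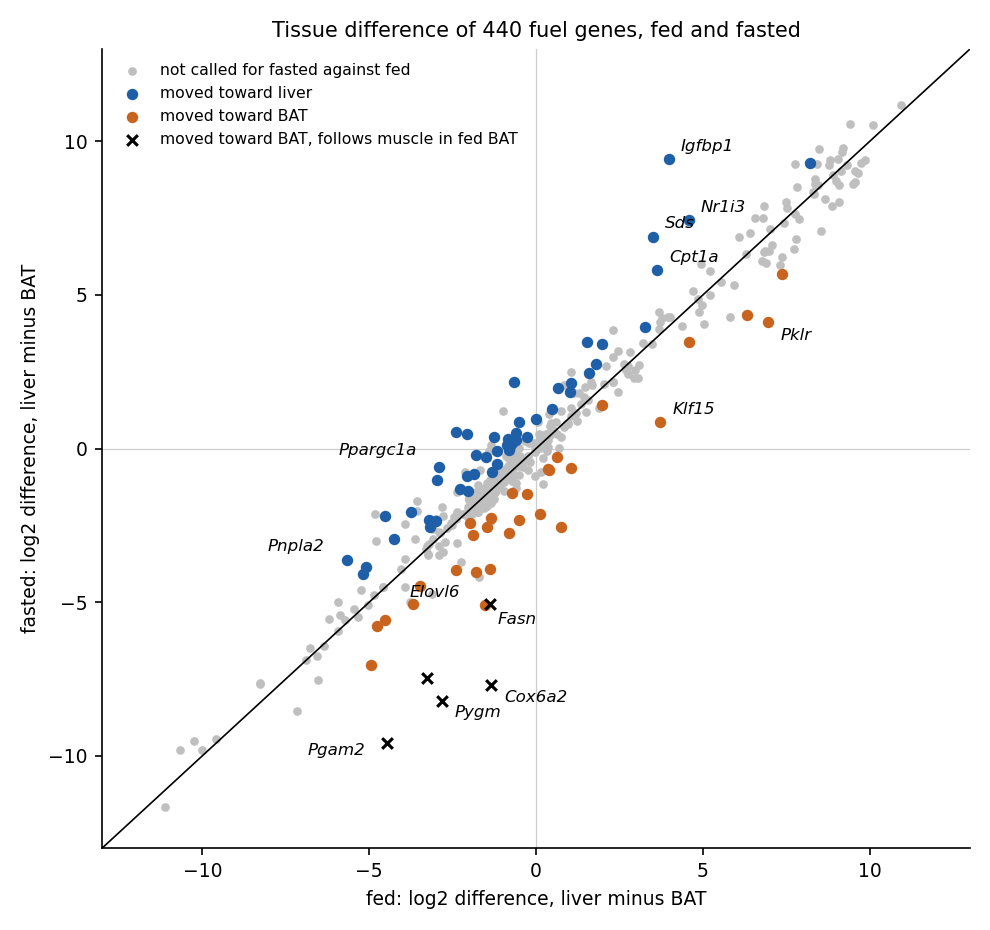
Log2 difference, liver minus BAT, of 440 fuel genes in fed (horizontal) and fasted (vertical) animals, with the line of equal differences. Blue points moved toward liver (48 genes), orange points and black crosses toward BAT (34 genes), and crosses mark the 5 of these that follow muscle in fed BAT; grey points were not called.

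Fatty acid synthesis had the most genes moved toward BAT of the 24 lists. Its median difference was −1.38 in fed and −2.35 in fasted rats, with 10 of 19 genes moved toward BAT and 3 toward liver. Fasn was at 3630 ± 998 in fed liver and 277 ± 48.5 in fasted liver, while BAT was at 10230 ± 932 and 9493 ± 377. The tissue difference was −1.53 in fed rats, and it moved by −3.57 ± 0.23 (adjusted p = 1.05e-07). Acaca moved by −1.55 ± 0.15, Elovl6 by −2.23 ± 0.29 and Acss2, which activates acetate, by −0.90 ± 0.18. For Elovl6 liver was at 1522 ± 523 in fed and 84.3 ± 22.3 in fasted rats, and BAT at 5006 ± 313 and 1362 ± 106. The median of the fatty acid uptake list was further apart between feeding states, at −0.67 in fed and −2.0 in fasted rats, but only 2 of its 14 genes moved toward BAT and 1 toward liver by the test. The call of Acaca ended when its probe sets were averaged (adjusted p = 0.0990).

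Oxidation genes moved the other way. Cpt1a was at 598 ± 192 in fed and 5244 ± 1062 in fasted liver, and at 45.1 ± 5.52 and 91.7 ± 14.7 in BAT, a move of 2.17 ± 0.28 toward liver (adjusted p = 8.46e-05). Of the mitochondrial beta-oxidation genes 5 of 16 moved toward liver and none toward BAT, and the median difference was −1.27 in fed and −0.76 in fasted rats. The carnitine shuttle list went from −0.86 to 0.17, with 6 of 19 genes moved toward liver, Slc25a20 among them (0.95 ± 0.18). Pnpla2 was at 109 ± 17.1 in fed and 542 ± 212 in fasted liver against 5650 ± 622 and 6230 ± 245 in BAT (2.05 ± 0.31). Cd36 moved by 1.23 ± 0.32, a call that ended under 7 alternatives (adjusted p up to 0.111). Cpt1b, Lpl and Ucp1 were not called, with moves of 0.28 ± 0.26, −0.16 ± 0.21 and −0.54 ± 0.34.

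By the naming rule, the 6 largest moves toward liver were those of Nim1k (5.68 ± 0.79), Igfbp1 (5.45 ± 0.68), Acot1 (4.26 ± 1.11), Colq (3.93 ± 0.33), Acot4 (3.68 ± 0.63) and Sds (3.4 ± 0.58). Colq, which anchors acetylcholinesterase, was at 13.1 ± 3.85 in fed and 194 ± 53.8 in fasted liver while BAT was at 116 ± 21.7 and 98.9 ± 20.7, so the higher tissue changed. Acot1 and Acot4 are acyl-CoA thioesterases of cytosol and peroxisome. Acot1 varied widely between fasted livers, at 34.2, 792, 250 and 135, and its call ended under 2 alternatives (adjusted p up to 0.055). The 6 largest toward BAT were Mybpc1, Myl2, Atp2a1, Cox6a2, Myh4 and Ampd1, genes of muscle fibres, with moves from −7.31 to −6.17. The call of Myh4 ended under 21 alternatives, that of Atp2a1 under 6 and that of Cox6a2 under 1. All 6 were far higher in BAT of fed animal 5 than in that of the other fed animals, Ampd1 for example at 570 against 12.9, 8.03 and 10.9.

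Pklr moved toward BAT by −2.83 ± 0.40 (adjusted p = 0.000277), with 1151 ± 266 in fed and 233 ± 58.1 in fasted liver and dim signals in BAT. Ppargc1a moved toward liver by 2.31 ± 0.47. It was at 22.8 ± 11.9 in fed and 65.5 ± 13.5 in fasted liver and at 160 ± 9.38 and 99.4 ± 9.23 in BAT. Its call ended when probe sets were averaged (adjusted p = 0.0661). Pck1 was at 2262 ± 294 and 1336 ± 216 in fed liver and BAT, and the tissue difference was not called as moved (−0.39 ± 0.19, adjusted p = 0.270). Fdft1 changed its higher tissue, from 1.06 in fed to −0.62 in fasted rats (−1.68 ± 0.22, adjusted p = 0.000141).

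**Figure D5:**
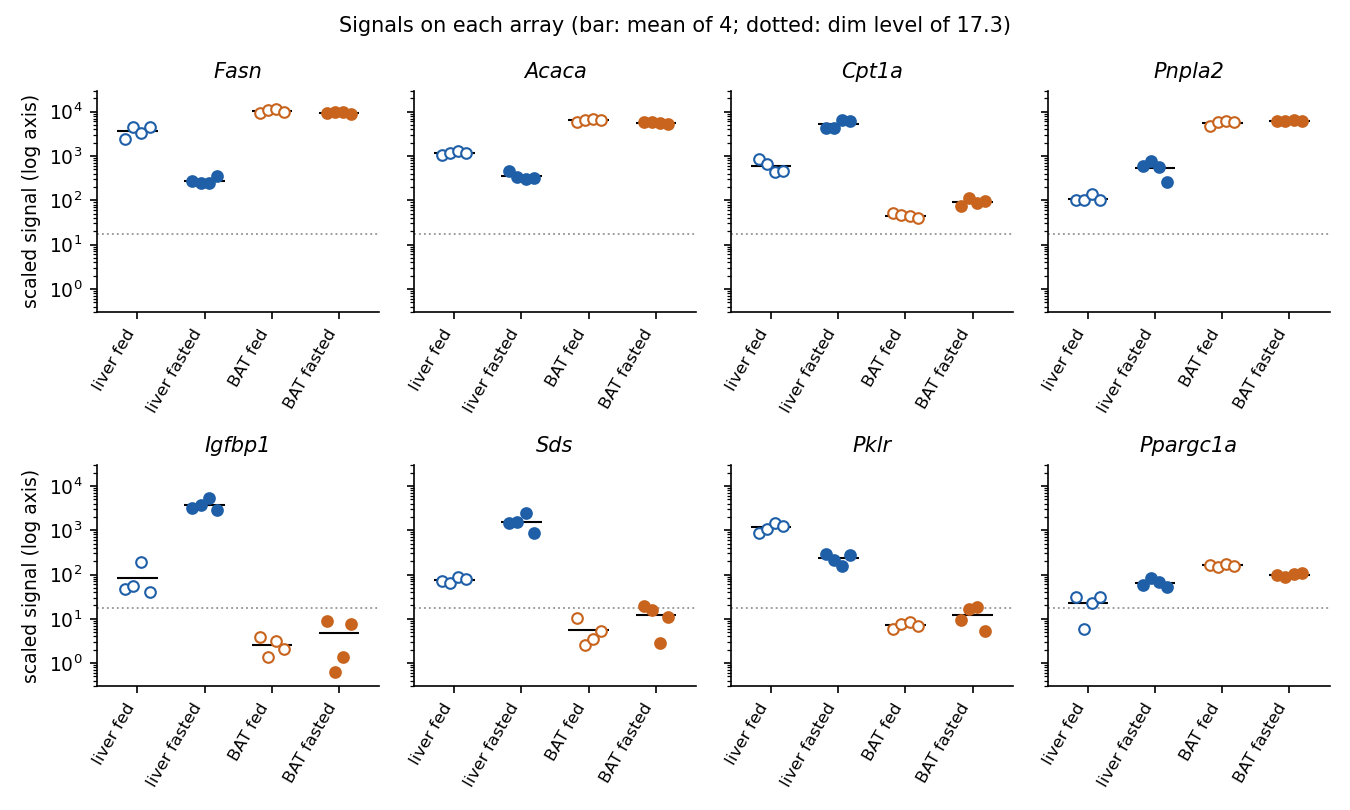
Scaled signals (log axis) of 8 genes on each array of fed (open) and fasted (filled) liver (blue) and BAT (orange), with bars for means of 4 arrays and a dotted line at the dim level of 17.3. Fasn in liver lies at 277 ± 48.5 in fasted against 3630 ± 998 in fed rats, and Cpt1a at 5244 ± 1062 against 598 ± 192, while BAT lies at 9493 ± 377 and 10230 ± 932 for Fasn.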

How the data were processed

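Signals of 24 Affymetrix rat arrays were analysed: 3 tissues of 4 fed and 4 fasted rats. The deposited values are linear intensities made by the authors with MAS5 (version not given), per the submitters' processing notes. No value lay at or below 0. Scan days were taken from the scan date recorded with each array, and raw scanner intensities were not used here. The number of arrays limits the precision. Each array was scaled to the mean 2% trimmed mean of all arrays, 126 (93.4 to 206 before scaling, and 94.2 to 136 on the 8 arrays compared). A pseudocount of 1.86, the 10th percentile of all signals, was added before log2.

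Of 31042 probe sets without controls, 20826 had 1 gene symbol, 436 several and 9780 none in the platform annotation, and 20758 symbols were updated by gene ID. The probe set with the highest mean stood for each of the 14217 genes, 4525 of which had several. No filter on low values was used. Tissues were compared with limma 3.58.1 in R 4.3.3 (lmFit, eBayes with trend, two-sided, Benjamini-Hochberg over all genes, called at an adjusted p under 0.05). Liver and BAT of fasted rats made 1 fit of 8 arrays. Fasted and fed differences were compared in a fit of 16 arrays. In simulated data with 50 genes at each size, the fasted comparison recovered 42% of log2 changes of 1 and 96% of those of 4. False calls made up 3.67% of its calls. The fasted against fed comparison recovered 32% and 92%, with 5.15% false calls. The sizes were 0.5, 1, 2 and 4, and few of the 14217 genes were changed. Between the fasted tissues 52.8% of genes were called, and recovery at such a share was not tested.

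Nothing in the labels says more than that each array is 1 animal. Equal animal numbers deviated together in both tissues (r = 0.195, 0.122, 0.107 and 0.205 for animals 6, 8, 9 and 10, over 7132 genes), so they were taken as pairs, in an alternative fit. Unequal numbers that share a scan day in each tissue reached similar values (0.119 for liver 6 with BAT 8 and 0.111 for liver 9 with BAT 10), so animal and scan day cannot be fully told apart in this check. Named genes are the 8 largest differences and the 8 widest gaps each way, both members of listed isoform pairs, up to 4 members each way of each pathway list in order of p, the 6 largest moves each way and a short list by name; not all are described, and markers and genes with a motif are named outside this rule. The comparison, its members and the lists were chosen with earlier results of these data known. Some genes of these lists are not analysed here. Alternatives changed the scaling, pseudocount, filter, probe set, block, arrays and variance prior, or left out 1 array.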

Additional observations from a re-analysis of the deposited data

Results flagged for a closer look

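Single arrays stood apart from the other 3 of their group in 23 of 284 groups of 4 arrays (8.1%), by a gap that was large against the group's range. Chance flags about 5% of groups, or 1 in 20. None of these made the tissues overlap except for Gys2, whose arrays overlapped anyway. In BAT of animal 8, Acadl was at 9168 (others 7593 to 7748), Hadhb at 9021 (7666 to 7787) and Elovl6 at 1204 (1399 to 1431). In BAT of animal 6, Adrb3 was at 2454, Gys2 at 839, Gckr at 7.24, Cyp2a2 at 1.14 and Cyp2c6v1 at 4.71. In BAT of animal 9, Ehhadh was at 582 (195 to 238), Decr2 at 642 and Ugt2b35 at 5.42. In BAT of animal 10, Cfd was at 6271 (7278 to 7444), Apoc2 at 12.3, Aqp9 at 3.44 and Slc10a1 at 5.68. In liver, Bdh1 was at 1221 in animal 9 (1427 to 1454), and Oxct1 at 44.2 and Pltp at 211 in animal 10 (366 to 387 for Pltp). Other liver values that stood apart were dim: Atp2a1 at 13.6 in animal 6, Cox8b at 9.32 and Myl2 at 3.88 in animal 8, Mybpc1 at 8.98 in animal 9 and Myl11 at 16.0 in animal 10.

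The tissue difference of 41 genes described differed between fasted and fed rats by the interaction test (adjusted p under 0.05), on the log2 scale. Toward liver moved Nim1k (5.68), Igfbp1 (5.45), Acot1 (4.26), Colq (3.93), Acot4 (3.68), Sds (3.4), Nr1i3 (2.87), Ppargc1a (2.31), Cpt1a (2.17), Pnpla2 (2.05) and Fgf21 (1.95). Smaller moves toward liver were those of Sc5d (1.44), Pfkfb1 (1.39), Cd36 (1.23), Gpd2 (1.10), Slc27a5 (1.10), Mat2a (1.05), Slc25a20 (0.95), Decr2 (0.87), Hadhb (0.66) and Alb (0.62). A move toward liver was not always a rise in liver. The fasted minus fed change of Fgf21 was 0.51 in liver (adjusted p = 0.455 by limma) and −1.44 in BAT (adjusted p = 0.013). For Sc5d it was −0.21 and −1.65, and for Mat2a 0.04 and −1.01. Others rose in liver, such as Cpt1a (3.16 in liver and 0.99 in BAT). Toward BAT moved Fasn (−3.57), Pklr (−2.83), Elovl6 (−2.23), Pfkfb3 (−2.11), Fdft1 (−1.68), Acaca (−1.55), Aacs (−1.37), Pfkm (−1.03), Kcnk3 (−0.99), Acss2 (−0.90) and Pygl (−0.89). Muscle genes moved toward BAT as well: Mybpc1 (−7.31), Myl2 (−6.85), Atp2a1 (−6.71), Cox6a2 (−6.36), Myh4 (−6.27), Ampd1 (−6.17), Pygm (−5.38), Pgam2 (−5.11) and Myl1 (−3.44), beside the muscle marker levels given above.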

How the results depend on the processing

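The counts of genes called between fasted liver and fasted BAT stayed within 1.5 times of their values in all 20 alternatives run. Calls ranged from 7033 to 7142 when 1 array was left out and from 6706 to 7798 under the other alternatives, liver-high calls from 2454 to 3778 and BAT-high calls from 3258 to 4945. With animals as a replicate block, which fits the pairing by animal number, 7600 genes were called and 1257 moved between feeding states, and the pairing moved no count by over 1.5 times. Scan day could not be fitted as a fixed block between the fasted tissues, since each day held 1 tissue; as a random block, chosen after seeing the data, it left 6720 calls. The count of genes that moved between feeding states, 1063, was less stable: 459 without scaling (238 toward liver and 221 toward BAT) and 1718 with scan day as a block (863 toward liver), and from 803 to 1076 when 1 array was left out. The cause was not tested.

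Of 36 list medians, 5 near 0 turned sign. Under median centring, ketone genes had 0.03, branched-chain genes 0.22, hormones 0.13 and red blood cell markers 0.23. With probe sets averaged, branched-chain genes had 0.02, hormones 0.01 and lymphocyte markers −0.05, and with a filter hormones had 0.13. Lymphocyte markers had −0.22 without BAT of animal 6 and −0.04 without liver of animal 6, and red blood cell markers 0.13 without liver of animal 9. Over all arrays left out in turn, lymphocyte markers reached 0.19 and red blood cell markers −0.27. Of 142 genes described, 3 turned sign: Gys2 (0.07 under median centring), Plin2 (−0.23 with probe sets averaged) and Ppara (−0.26 and −0.29 without BAT of animal 6 or 8, and up to 0.55 without animal 9), and 6 lost their call somewhere, Plin2 among them. Of 41 called moves, 19 did, Myh4 in 21 alternatives, Alb in 16, Pfkfb3 in 12, Pfkm in 11 and Fgf21 in 10. In dim tissues the signal over background, not the fold, limits what can be said.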

Other observations

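A few fuel genes outside the naming rule, chosen after their values were seen, changed the order of the tissues or nearly closed the gap between feeding states. Pex11a, which helps peroxisomes divide, was at 139 in fed and 804 in fasted liver and at 729 and 547 in BAT, a move toward liver of 2.95 (adjusted p = 9.96e-07 by limma). Srebf1, the factor that drives fatty acid synthesis genes, was at 3165 in fed and 307 in fasted liver and at 1869 and 1720 in BAT, a move toward BAT of −3.30 (adjusted p = 2.33e-07), in the direction of Fasn. Klf15, a factor of amino acid use in fasting, was at 1091 in fed and 1583 in fasted liver and at 86.7 and 865 in BAT. Its tissue difference was 3.71 in fed and 0.85 in fasted rats. Eci1, an isomerase of mitochondrial beta-oxidation, was at 2330 in fed and 5528 in fasted liver and at 6634 and 6720 in BAT, so that the difference went from −1.50 to −0.28.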
